A study of Drosophila melanogaster with 4 samples.

Results

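Circular RNAs that use the same back-splice end as another circular RNA were examined in a ribosome footprinting study of heads of the fruit fly Drosophila melanogaster. A circular RNA (circRNA) was counted as shared-end if its first coordinate, or its second coordinate, equalled that of at least 1 other listed circRNA on the same chromosome. By this rule 1170 of the 2563 listed circRNAs were shared-end (45.6%), and the other 1393 had unique ends. The rule used coordinates alone and no read count.

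The study had 2 libraries labelled high detergent and 2 labelled low detergent, all from fly heads, and the labels give no strain, genotype, sex or age. The protocols describe heads by number, and the sources used here do not say which number had high or low detergent. Read counts were therefore taken from the authors' column over all samples together, and the detergent levels were not compared. The 4 columns per library were not used, since they could not be tied to the labelled samples, so no spread between libraries is given. Intervals reflect counting error alone. The table lists circRNAs alone, so the tissue could not be checked against marker mRNAs.

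A circRNA forms by back-splicing, in which the splice donor at the end of an exon is joined to a splice acceptor that lies upstream of it, so that the exons between them close into a ring. In a circRNA made in this way, the upstream end in the direction of its gene is thus an acceptor and the downstream end is a donor. When several circRNAs share an upstream end, 1 acceptor is joined to different donors, and when they share a downstream end, 1 donor is joined to different acceptors. This choice, called alternative circularization, lets 1 gene make nested circRNAs with a common first or last exon. Each combination has its own junction, so circRNAs with a common end can be told apart by reads across that junction. Footprint reads are taken here to cross the junction, which the table does not state. Splice sites were not read, so that an end is an acceptor or donor is likewise taken from its place. At 64 of the 621 shared ends, no circRNA had the span of a block of annotated exons.

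Either coordinate was shared about as often as the other. Of the 1170 shared-end circRNAs, 467 shared the first coordinate only (39.9%, 95% exact binomial interval 37.1% to 42.8%), 461 the second only (39.4%, 36.6% to 42.3%) and 242 both (20.7%, 18.4% to 23.1%). The list held 2166 distinct first coordinates, of which 312 were shared (14.4%), and 2169 distinct second coordinates, of which 309 were shared (14.2%). Most of the 621 shared ends, 502 of them (80.8%), served exactly 2 circRNAs. A further 87 ends served 3 circRNAs, 23 served 4, and 9 served 5 or more, up to 8.

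Read by gene strand, more circRNAs shared the upstream end alone than the downstream end alone. Among the 927 circRNAs that shared 1 end only and had a gene strand, 529 shared the upstream end and 398 the downstream end, so that the upstream end made up 57.1% (exact interval 53.8% to 60.3%). Of the 621 shared ends, 331 were upstream ends (53.3%, 49.3% to 57.3%, which includes equal shares) and 290 were downstream ends. Of the 119 hub ends, defined as ends that serve 3 or more circRNAs, 71 were upstream (59.7%, 50.3% to 68.6%) and 48 downstream. Both ends with 8 circRNAs were upstream ends. circRNAs of 1 gene are not independent of each other, and these intervals treat them as if they were.

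**Figure D1:**
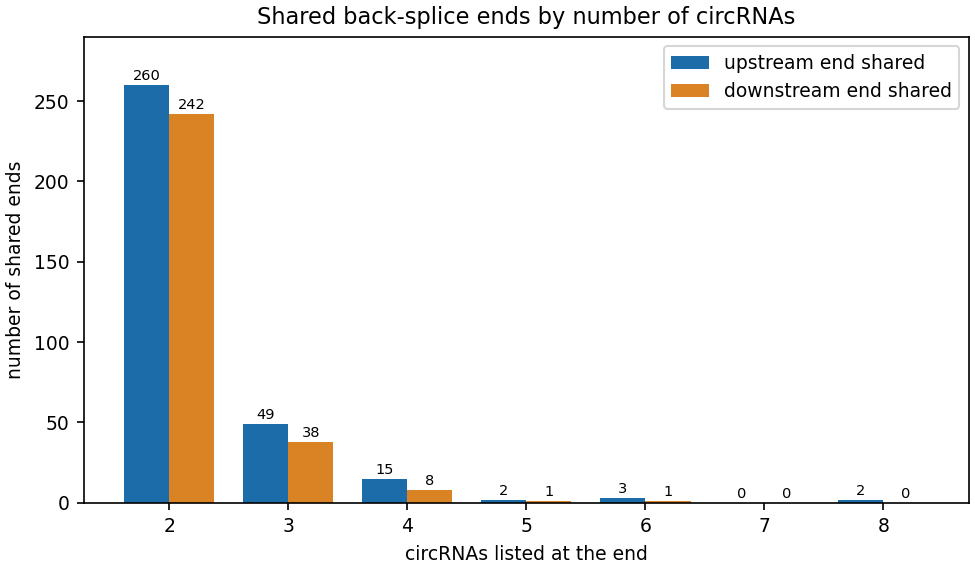
Number of shared back-splice ends (y axis) by the number of circRNAs listed at the end (x axis), for upstream ends (left bars) and downstream ends (right bars) in the direction of the gene. At 2 circRNAs there were 260 upstream and 242 downstream ends, and at 8 there were 2 upstream and 0 downstream ends.

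The ends used by most circRNAs lay in mbl and pan. An upstream end of mbl (muscleblind, an RNA-binding splicing regulator) at position 13162915 of chromosome 2R, in build dm3, served 8 circRNAs with spans between 654 and 86688 bp. An upstream end of pan (a transcription factor of the Wnt pathway) at position 92947 of chromosome 4 also served 8, with spans between 542 and 27155 bp. All 8 pan spans equalled a block of annotated exons, against 4 of the 8 of mbl. The 8 pan blocks began at the same exon and ran over 2, 3, 4, 6, 7, 8, 9 and 10 exons, so the circRNAs were nested within each other.

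At 4 further upstream hubs, each with 5 or 6 circRNAs, all circRNAs had 0 footprint reads. Cadps, which encodes a factor for release of dense-core vesicles, had 6 circRNAs from position 1250828 of chromosome 4, spanning 137 to 18308 bp. CG17646, an ABC transporter gene, had 6 from position 1741660 of 2L, spanning 601 to 7215 bp, which ran over 2, 3, 4, 6, 7 and 9 exons. CG17816 had 6 at position 3691483 of 3R, spanning 611 to 6824 bp. Eip63E, which encodes a cyclin-dependent kinase, had 5 from position 3578289 of 3L, spanning 192 to 20333 bp.

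The remaining hubs with 5 or more were 1 upstream and 2 downstream ends. At position 6026346 of chromosome X, an upstream end of Ca-alpha1T, a T-type calcium channel gene, served 5 circRNAs that spanned 122 to 12079 bp. A downstream end of ps (pasilla, an RNA-binding splicing regulator) at position 5267387 of 3R served 6, spanning 250 to 2551 bp. A second hub of pan, the downstream end at position 120101, served 5, spanning 5053 to 27155 bp. The longest of these also began at the upstream hub of pan, so that 1 circRNA joined both hubs. In chromosome and coordinate order the next end, with 4 circRNAs, was an upstream end of CG17646 at position 1743345 of 2L.

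Reads at these hubs were sparse, with 1 read at each hub that had any except that of mbl. At the mbl hub all 42 reads fell on the shortest circRNA, of 654 bp, and the other 7 had 0 reads. The 95% exact Poisson interval of this count is 30.3 to 56.8. At the upstream hub of pan the only read fell on the circRNA of 22682 bp, the second longest of the 8. The Ca-alpha1T read fell on the shortest circRNA, of 122 bp, and the ps read on the second longest, of 2541 bp. The hub of CG17646 with 4 circRNAs had 1 read, on its circRNA of 2017 bp. A count of 0 allows up to 1.30% of all 230 reads (3 reads), so at 1 read a hub does not show which of its circRNAs is more often covered.

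**Figure D2:**
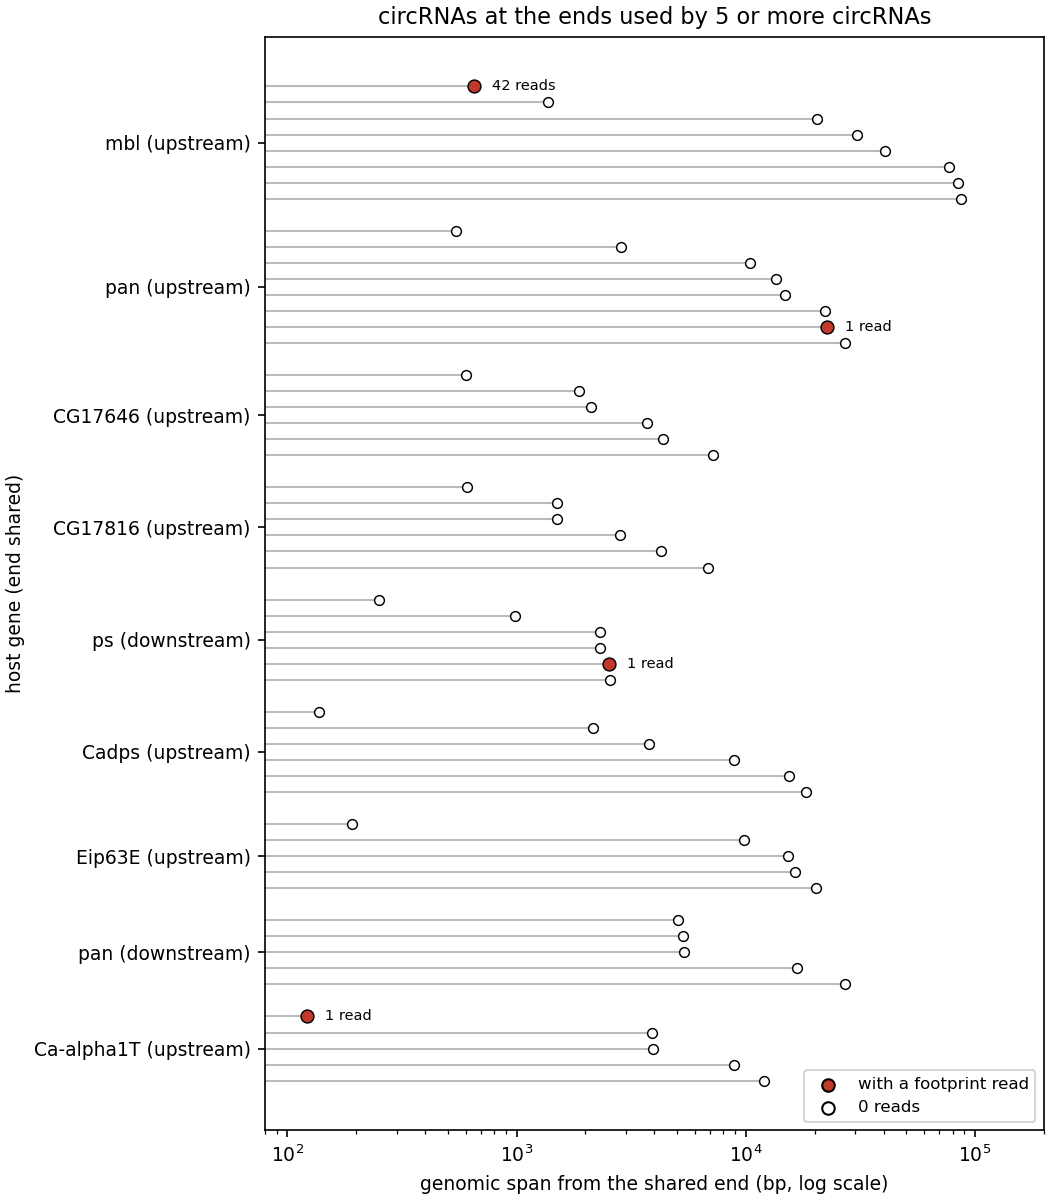
Each line is 1 circRNA, drawn from the shared end to its genomic span in bp on a log axis, for the 9 ends used by 5 or more circRNAs. Filled points have a footprint read over all samples and open points have 0, and 4 of the 9 hubs have a filled point, mbl with 42 reads and pan, ps and Ca-alpha1T with 1 each.

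Linking circRNAs through their common ends gave 408 families. Of these, 267 held 2 circRNAs, 66 held 3, 31 held 4 and 44 held 5 or more. CG17646 and pan each had 1 family of 18, slo (a calcium-activated potassium channel) had 1 of 17, mbl 1 of 15, and Eip63E, CG17816 and Cadps 1 of 10 each. In 119 families both coordinates varied. A complete grid, in which every first coordinate was joined to every second one, was found in 3 of them, each with 2 first and 2 second coordinates, in p120ctn, CG31145 and msi. The msi grid lay on 3R and spanned 1231 to 36685 bp, and its 2 second coordinates lay 27 bp apart.

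Since circRNAs with a common coordinate lie at 1 locus, most shared ends had circRNAs of 1 gene, which the rule largely fixes. By current symbol, 2 of the 621 ends joined circRNAs assigned to different genes, CG17724 with Kdm4B and CG41042 with na. By the host names as listed with the circRNAs, 11 ends joined different names. The 1170 shared-end circRNAs came from 355 host genes by current symbol, out of 1191 in the whole list. Of the 534 genes with at least 2 listed circRNAs, 353 had at least 1 shared-end circRNA (66.1%, exact interval 61.9% to 70.1%). Most hosts had few of them, with exactly 2 in 206 genes, 5 or more in 56 and 10 or more in 13.

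The 10 hosts with most shared-end circRNAs differed in how their ends were used. In slo, 13 of 17 shared both ends, and all 17 spans equalled exon blocks. CG17646 was alike, with 16 of 18 sharing both ends. In pan, 8 of 18 shared the upstream end only, 4 the downstream end only and 6 both. nolo, which encodes a secreted ADAMTS-like protein, had 14, of which 8 shared the upstream end only. In ps all 12 shared the downstream end only. mbl had 15, Cadps 12 and sif (still life, an activator of Rac) 11.

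The translation elongation factor genes eEF2 and eEF1alpha1 completed the 10 and stood apart in length. eEF2 had 16 shared-end circRNAs with a median span of 245 bp, and eEF1alpha1 had 12 with a median of 256 bp, against 1727.5 bp over all shared-end circRNAs. None of the 16 or of the 12 equalled an exon block of the gene, and all had 0 footprint reads. Without ribosomal protein and elongation factor genes, 1134 shared-end circRNAs remained, with a median span of 1882.5 bp.

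Shared-end circRNAs spanned more of the genome than the rest. They covered a median of 1727.5 bp (95% interval from order statistics 1571 to 1996), against 777 bp (734 to 827) for circRNAs with unique ends. The middle 50% ran from 698 to 5087 bp in shared-end circRNAs, against 336 to 1464 bp in the others. Spans are read from the same coordinates as the shared ends, so these values are a description and no test was made of them. The difference was as large among hosts with at least 2 listed circRNAs, with medians of 1727.5 bp for shared-end circRNAs and 745 bp (677 to 810) for the others. circRNAs that shared both ends had the longest median of the classes, 4180 bp (3510 to 5205), whereas those sharing the upstream end only had 1566 bp (1389 to 1757) and those sharing the downstream end only 1354 bp (1115 to 1630).

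**Figure D3:**
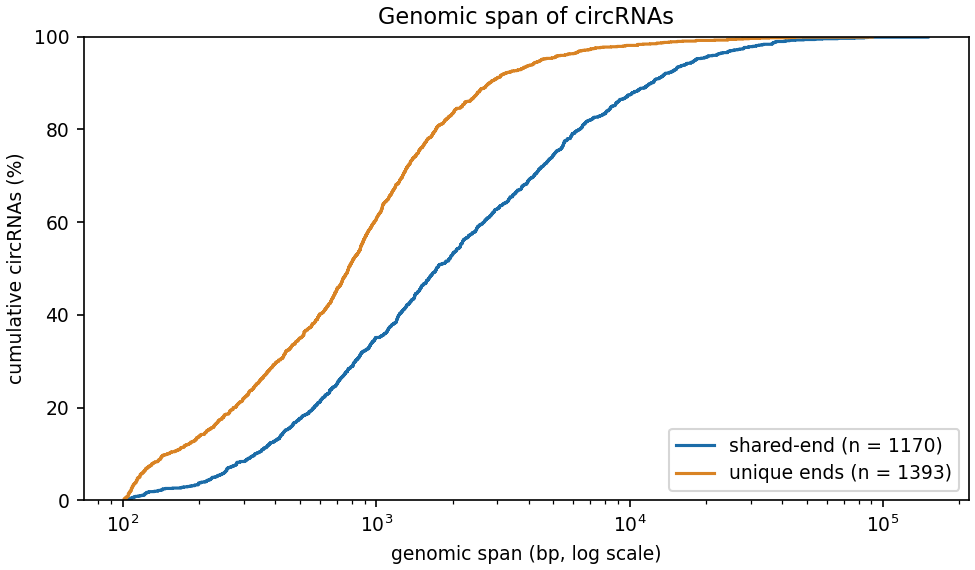
Cumulative share of circRNAs (y axis, %) by genomic span in bp (x axis, log scale) for the 1170 shared-end circRNAs and the 1393 with unique ends. The curve of shared-end circRNAs lies to the right, with a median of 1727.5 bp against 777 bp.

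The extremes of span were found in unlike genes. The shortest shared-end circRNA spanned 103 bp, in eIF3b, a translation initiation factor gene, followed by circRNAs of Lpin and l(3)80Fj that were each 1 base longer. The longest spanned 151141 bp, in CG17684, followed by 86688 and 84148 bp from the mbl hub. All 6 had 0 reads. Within an end, the longest circRNA spanned a median of 4.03 times the shortest (3.53 to 4.59), and up to 254 times in CG17684.

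Spans of whole exons made up a larger share of the shared-end circRNAs. The span equalled a block of annotated exons of the host gene in 977 of 1170 shared-end circRNAs (83.5%, exact interval 81.3% to 85.6%), against 977 of 1393 with unique ends (70.1%, 67.7% to 72.5%). The match is read from the same coordinates as the shared ends, and circRNAs with a common end share 1 of the coordinates that decide it, so these shares are a description with no test. They were added after the table had been seen. With spans shifted by 1 to 11 bases, between 0.684% and 2.91% of shared-end circRNAs still equalled a block, against 1.15% to 2.66% of the others. As a check of the match, circRNAs that share an end in dm3 were compared in the newer annotation, where 500 of 502 ends with several matched circRNAs (99.6%) led to 1 position.

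Exon counts come from the same coordinates and are likewise given without a test. The median of shared-end circRNAs with 1 assigned block was 3 exons, against 2 for the others, and 121 of 960 held 1 exon (12.6%, exact interval 10.6% to 14.9%), against 255 of 962 with unique ends (26.5%, 23.7% to 29.4%). The upstream end lay at the second exon of a transcript in 39.3% (36.2% to 42.4%), against 50.4% (47.2% to 53.6%) of the others. Exon numbers differ between transcripts, and the lowest number above 1 was taken. Between partners at ends with exactly 2 circRNAs, both with an assigned block, the difference was 1 exon in 225 of 394 cases (57.1%). It was 2 exons in 74 and at most 16, and in 22 cases both partners had the same number of exons.

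Some partner ends lay only a few bases apart. In 68 of 791 neighbouring pairs at a shared end (8.60%) the partner ends were within 30 bp. By side, it was 45 of 351 pairs at a shared downstream end (12.8%, exact interval 9.51% to 16.8%). At a shared upstream end it was 23 of 440 (5.23%, 3.34% to 7.74%). In 29 of these 68 pairs neither span equalled an exon block. Exactly 3 bp separated 14 pairs, and in all 14 the downstream end was shared and the upstream ends differed. That is 14 of 351 pairs at a shared downstream end (3.99%, exact interval 2.20% to 6.60%), against 0 of 440 pairs at a shared upstream end (upper exact limit 0.835%). The gaps are read from the same coordinates as the shared ends, and no test was made of them. The gap of 3 bp was singled out after the values had been seen. Tandem acceptors that lie 3 bases apart are well known from linear splicing. No splice site was read here, and whether such acceptors account for these pairs was not tested.

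The 14 pairs came from 13 genes, with 2 pairs in ps and 1 each in CG31650, CG33298, ap, Obsc, Nedd4, gish, cpo, CG7720, beat-VI, CG34417, spri and bves. In 8 pairs both spans equalled exon blocks, and in the other 6 pairs 1 did. Reads fell in 2 of the 14 pairs. In CG33298 the circRNA of 1221 bp had 1 read, against 0 for that of 1218 bp. In ps the circRNA of 811 bp had 1 read, against 0 for that of 808 bp. A gap of 9 bp was seen in 5 pairs at a shared upstream end and 2 at a shared downstream end.

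**Figure D4:**
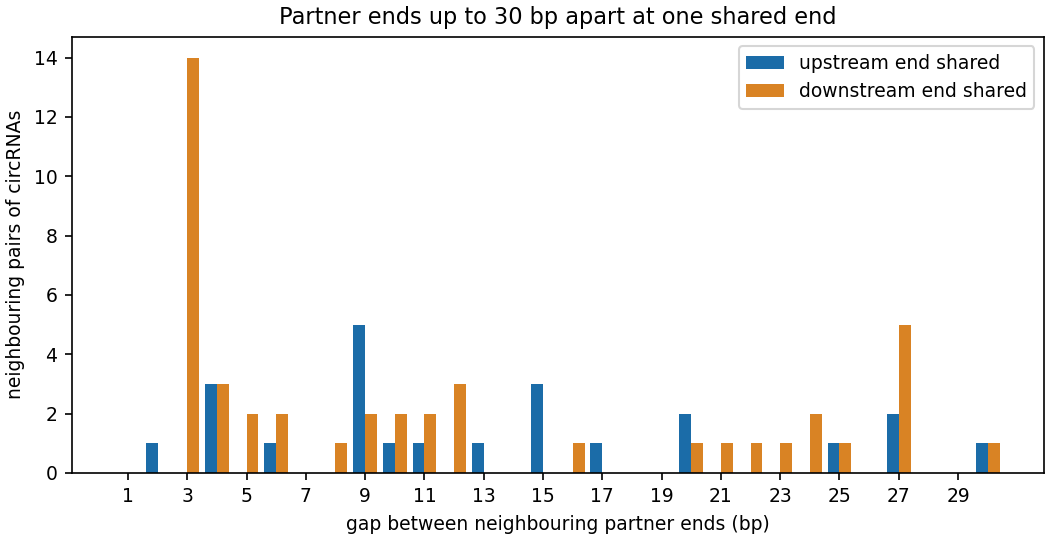
Number of neighbouring pairs of circRNAs (y axis) by the gap in bp between their partner ends (x axis, up to 30 bp), where the upstream end (left bars) or the downstream end (right bars) is shared. The highest bar is that of 3 bp, with 14 pairs at shared downstream ends and 0 at shared upstream ends.

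Footprint reads were next compared between shared-end and other circRNAs. At least 1 read was seen on 60 of 1170 shared-end circRNAs (5.13%, exact interval 3.94% to 6.55%), against 62 of 1393 with unique ends (4.45%, 3.43% to 5.67%), where the share over all listed circRNAs was 4.76%. The ratio of the odds, 1.16 with an interval of 0.792 to 1.70, did not pass Fisher's exact test (two-sided, p = 0.457, and p = 0.639 once adjusted over 4 comparisons). With at least 2 reads the count was 15 of 1170 (1.28%), against 11 of 1393 (0.790%) and 1.01% over all, and the ratio of the odds was 1.63, with an interval of 0.697 to 3.94 and an exact Fisher p = 0.239. Among circRNAs that equal exon blocks the direction turned, with 5.63% of shared-end circRNAs against 6.14% of the others (ratio of the odds 0.912, interval 0.613 to 1.35, exact Fisher p = 0.701). Of all circRNAs that share the second coordinate, whether or not they also share the first, 44 of 703 had a read (6.26%), against 78 of the other 1860 (4.19%; ratio of the odds 1.53, interval 1.02 to 2.26, exact Fisher p = 0.0370, unadjusted). Of all that share the first coordinate, including those that share both, it was 33 of 709 (4.65%), against 89 of the other 1854 (4.80%, exact Fisher p = 0.918). First and second coordinates take no account of gene strand. Of all the alternatives run for this comparison, only that of the second coordinate passed the test.

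In reads, shared-end circRNAs held 126 of 230 (54.8%), of which 42 were those of the mbl circRNA. Without it they held 84 of 188 (44.7%, exact interval 37.4% to 52.1%). Of the 60 circRNAs with a read, 45 had exactly 1 read, 12 had 2 and 3 had more.

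By span, shared-end circRNAs under 500 bp had a read in 5 of 207 cases (2.42%, exact interval 0.789% to 5.55%), against 3 of 488 with unique ends (0.615%, 0.127% to 1.79%). From 500 to under 2000 bp it was 28 of 413 (6.78%, 4.55% to 9.65%), against 46 of 674 (6.82%, 5.04% to 9.0%). From 2000 to under 10000 bp it was 19 of 403 (4.71%, 2.86% to 7.26%), against 13 of 205 (6.34%, 3.42% to 10.6%). At 10000 bp and over, 8 of 147 shared-end circRNAs had a read (5.44%), against 0 of 26 of the others (upper limit 13.2%). The intervals overlapped in every bin, which does not show that the shares are equal, and no bin was tested.

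Neither the side of the shared end nor the number of circRNAs at it gave a difference that passed the test. circRNAs sharing the upstream end only had a read in 23 of 529 cases (4.35%, 2.78% to 6.45%), against 20 of 398 (5.03%, 3.10% to 7.65%) sharing the downstream end only (ratio of the odds 0.859, interval 0.444 to 1.68, exact Fisher p = 0.639 before and after adjustment). Those sharing both ends had a read in 17 of 242 cases (7.02%, 4.15% to 11.01%). At ends with 3 or more circRNAs it was 21 of 369 (5.69%, 3.56% to 8.57%), against 39 of 801 (4.87%, 3.48% to 6.60%) at ends with exactly 2 (ratio of the odds 1.18, interval 0.649 to 2.09, exact Fisher p = 0.570, and p = 0.639 once adjusted).

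Among shared-end circRNAs with an assigned block, those that include an annotated start codon had a read in a larger share, but the difference did not pass the test. A read was seen on 24 of 333 with a start codon (7.21%, 4.67% to 10.5%), against 30 of 627 without one (4.78%, 3.25% to 6.76%). The ratio of the odds was 1.54, with an interval of 0.848 to 2.79 (exact Fisher p = 0.141, and p = 0.563 once adjusted). This comparison was added after the table had been seen. Among circRNAs with unique ends and an assigned block, 34 of 393 with a start codon had a read (8.65%, 6.07% to 11.9%). Without a start codon it was 25 of 568 (4.40%, 2.87% to 6.43%). Over the whole list it was 58 of 726 with one (7.99%, 6.12% to 10.2%), against 55 of 1195 without (4.60%, 3.49% to 5.95%). Neither of these further contrasts was tested. These shares cover only circRNAs with 1 assigned block of a coding transcript. The start codon was part of 333 of 960 such shared-end circRNAs (34.7%, 31.7% to 37.8%), against 393 of 961 of the others (40.9%, 37.8% to 44.1%).

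**Figure D5:**
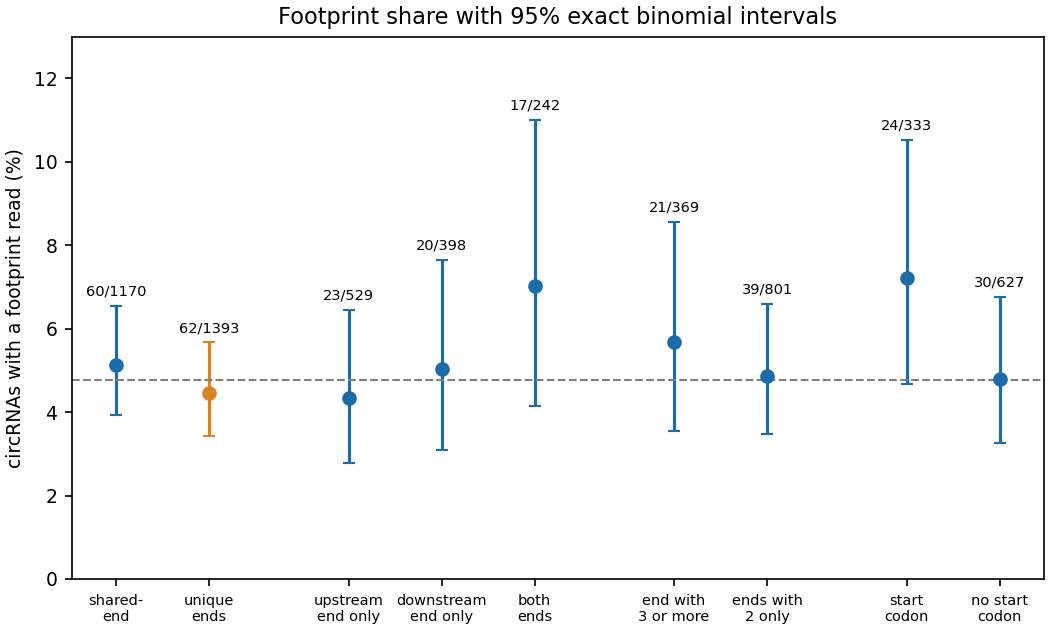
Share of circRNAs with at least 1 footprint read over all samples (y axis, %), as points with 95% exact binomial intervals and the counts above. The columns to the right of the unique ends are classes of shared-end circRNAs, the dashed line is the share over all listed circRNAs (4.76%), and the interval of every class includes it.

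Few ends or families had more than 1 read. A read was seen at 74 of 621 shared ends (11.9%), and at 3 of these 2 circRNAs had one. At the 50 ends with exactly 2 circRNAs and 1 read-bearing circRNA, it was the shorter in 29 and the longer in 21. At the 21 hub ends with 1 read-bearing circRNA, it was the shortest in 7, the longest in 5 and one in between in 9. By family, 55 of 408 had a read (13.5%), and 37 of these had 1 read in all, which can fall on 1 circRNA only. Of the 18 families with 2 or more reads, 14 had them on 1 circRNA and 4 on 2 or more.

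Those 4 families came from toy, l(3)80Fg, Spn and pigs. toy encodes a Pax6 transcription factor, and its family of 8 circRNAs on chromosome 4 had 1 read on that of 5818 bp and 1 on that of 2194 bp. These share neither end with each other and are linked through further circRNAs. l(3)80Fg had 3 circRNAs with 1 read each, of 53855, 28345 and 9117 bp, in a family of 6. Spn (spinophilin, a scaffold that binds protein phosphatase) had 2 reads on its circRNA of 6693 bp and 1 read on that of 1508 bp, which share a downstream end at position 2534711 of 3L. In pigs, which encodes a linker of actin and microtubules, the circRNAs of 25926 and 401 bp share the downstream end at position 6525138 of X and had 1 read each.

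After mbl, the shared-end circRNA with most reads came from kis (kismet), a chromatin remodeller. It lay at 2L from 227372 to 231034, shared both ends and had 11 reads (95% Poisson interval 5.49 to 19.7). The 3 other circRNAs of kis in the family had 0 reads. They were 1 of 910 bp with the same downstream end and 2, of 497 and 1862 bp, with the same upstream end. CG34126 had 4 reads (1.09 to 10.2) at 2L from 4990308 to 4991262, and 0 on the circRNA of 3356 bp that shares its downstream end. The mbl interval lay above those of kis and CG34126.

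The 12 shared-end circRNAs with 2 reads had an interval of 0.242 to 7.22 each. At upstream ends, Dpp10 had them on the longest of 4 circRNAs (14948 bp), heph (a polypyrimidine-tract binding protein) on the shorter of 2 (124 bp) and a (arc) on the longer of 2 (2085 bp). At downstream ends, Liprin-gamma, a synaptic scaffold gene, had them on the shortest of 3 (2795 bp), and Bsg (basigin, a membrane glycoprotein) on the longer of 2 (2189 bp). uex had them on a circRNA of 1208 bp and 0 on a circRNA of 1204 bp with the same downstream end. mura and CG42613 had them on the shorter of 2, of 573 and 717 bp, at a shared downstream end. Sap47 (a synapse-associated protein), nolo, msi (musashi, an RNA-binding protein) and Spn had 2 reads on circRNAs sharing both ends, and that of msi was the shortest of its grid, 1231 bp.

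At hub ends, further single reads fell on circRNAs of CG17646, CG17724, Svil, Eip63E, slo, ey, ct, l(3)80Fg, toy, pan, ps and Ca-alpha1T. The slo read fell on the shortest of 3 circRNAs at position 20512909 of 3R, that of 719 bp. In Eip63E it fell on a circRNA of 1414 bp and not on any of the 5 at its largest hub. Elsewhere, circRNAs with 1 read at ends used by exactly 2 came from Drgx, tutl, Slob, CG33298, rdo, Pax, CG8671, Gprk1, lola, Drl-2, CG17724 (a circRNA that the table lists under the symbol seq), Sema2b, 5-HT1A, par-1, fwd, Hipk, trio, Svil, Spn, RhoGEF64C, fng, l(3)80Fg, ps, stumps, Eip93F, CG11360, eIF4G1, pigs (2 circRNAs), Sec16 and rsh. 1 read has an interval of 0.0253 to 5.57.

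By chromosome, shared ends were listed most often on the small chromosome 4 and on the sequences outside the main arms. On chromosome 4, 75 of 122 circRNAs were shared-end (61.5%, exact interval 52.2% to 70.1%), and on the unplaced and heterochromatic sequences 47 of 78 (60.3%, 48.5% to 71.2%). A few genes gave many of the 75, with 18 of 18 listed circRNAs in pan, 12 of 13 in Cadps and 8 of 8 in toy. The share on chromosome 4 thus leans on these hosts, and the intervals treat circRNAs of 1 gene as independent. X had the lowest share, 150 of 383 (39.2%, 34.2% to 44.3%), and the other arms ran from 44.2% to 47.5%. On chromosome 4 a read was seen on 6 of the 75 shared-end circRNAs (8%, 2.99% to 16.6%), against 7 of the 47 with unique ends (14.9%, 6.20% to 28.3%). On 2R it was 11 of 233 (4.72%, 2.38% to 8.29%), against 4 of 275 (1.45%, 0.398% to 3.68%). Both pairs of intervals overlapped, which does not show that the shares are equal, and neither contrast was tested.

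Host gene groups differed in how many of their circRNAs shared ends. The share was 77 of 101 for synaptic genes (76.2%, 66.7% to 84.1%), led by Cadps with 12 and dlg1 and scrib with 9 each. It was 63 of 84 for transcription and chromatin genes (75%, 64.4% to 83.8%), a list that also held ps, whose product binds RNA. For ion channels and receptors it was 60 of 90 (66.7%, 55.9% to 76.3%), with 17 from slo, 8 from para (the voltage-gated sodium channel) and 7 each from Ca-alpha1T and SK. All 60 spans equalled exon blocks. Over the whole list the share was 45.6%.

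Of the other groups, signalling enzymes had 46 of 74 shared-end (62.2%), RNA-binding regulators 43 of 74 (58.1%), adhesion and guidance genes 35 of 69 (50.7%), the translation machinery 48 of 98 (49.0%) and cytoskeletal genes 25 of 55 (45.5%). In the same order, the leading hosts were sif with 11, mbl with 15, nolo with 14, eEF2 with 16 and Svil with 10. The adhesion and guidance list thus leans on nolo, whose product is a secreted ADAMTS-like protein and which had 15 listed circRNAs. Lists for other cell types of the head were small. Muscle genes had 10 of 29 (34.5%, 17.9% to 54.3%), photoreceptor genes 4 of 15, all from eys, fat body and cuticle genes 4 of 13, and glial genes 0 of 3, which allows up to 70.8% by the exact interval. Some genes stand in more than 1 list. These shares are descriptions, and the number of circRNAs per gene enters them directly, since a gene with 1 listed circRNA can hardly share an end.

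Reads on the shared-end circRNAs of these groups were few. Transcription and chromatin genes had a read on 9 of 63 (14.3%, 6.75% to 25.4%), from kis, toy and ps (2 circRNAs each for toy and ps), Eip93F, ey, lola and pan, against 5.13% over all shared-end circRNAs. The list was drawn up with earlier results of these data known, and kis, toy, ps, Eip93F, ey, lola and pan were already known to have reads, as were Svil and pigs below. Cytoskeletal genes had 4 of 25 (16%, 4.54% to 36.1%), from Svil and pigs with 2 each. It was 4 of 77 for synaptic genes, 3 of 60 for ion channels and receptors, 3 of 46 for signalling enzymes, 3 of 43 for RNA-binding regulators and 2 of 35 for adhesion and guidance genes. The translation machinery had 1 of 48, from eIF4G1, and muscle, photoreceptor, and fat body and cuticle genes had 0 of 10, 4 and 4, with upper exact limits of 30.8%, 60.2% and 60.2%.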

How the data were processed

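Ribosome footprints of fly heads were sequenced in 4 libraries. Heads 1 and 2 were homogenized by an older method, and heads 3 and 4 were frozen and lysed with Triton X-100, per the labels' protocols. The tool cutadapt 1.9.1 and build dm3 come from the submitters' processing notes. Per the file headers, reads were freed of ribosomal RNA. No aligner, circRNA caller or read minimum is given in the sources used here. The deposited read count over all samples is a whole number made by the authors and is not normalized. The listed circRNAs held 230 reads in all, and the depth of the libraries is not given in the table. The 4 columns per library could not be tied to the labelled samples and were not used.

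Ends were compared as exact coordinates, the first raised by 1 to count from 1. Current symbols came from NCBI's gene table, by accession for 1155 of the 1170 shared-end circRNAs and by symbol for 14. In 19 the table's symbol leads to another gene than the one printed. 1 circRNA had no gene strand. Ensembl release 115, on a newer build, was used for strand and exon lengths only, and no coordinate was converted. No dm3 genome was used here, so no sequence is printed. A span was matched to the length of any run of exons of a transcript by exact equality. A block was assigned where 1 position matched.

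Differences between shares were tested by Fisher's exact test (two-sided, with the conditional odds ratio), adjusted by Benjamini-Hochberg over 4 comparisons, 1 of them added after the table was seen. They treat circRNAs as independent, which those of 1 gene are not, and do not measure the spread between samples. Reads without molecular identifiers are not independent molecules, so intervals (95%) and floors (3 reads) cover counting error only. The methods were tested on simulated data in which reads fell on circRNAs independently, so dependence within a gene was not covered. Named circRNAs were those at the 10 most used ends, those with a read, those of the 10 hosts with most members, and the 3 shortest and 3 longest. The members and gene lists were chosen with earlier results of these data known. The detergent comparison and its tests were not made. Python 3.11.15, scipy 1.17.1, numpy 2.4.6 and pandas 2.3.3 were used.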

Additional observations from a re-analysis of the deposited data

How the results depend on the processing

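The difference in footprint share between shared-end and other circRNAs, 0.677 percentage points, passed the test under 1 of the 10 alternatives. When a shared end meant a shared second coordinate, with or without the first, it was 2.07 percentage points (44 of 703 against 78 of 1860, odds ratio 1.53, 1.02 to 2.26; Fisher's exact test, unadjusted p = 0.0370). The direction turned to -0.146 when it meant a shared first coordinate, with or without the second, and to -0.512 among circRNAs equal to exon blocks. The causes were not tested. The p of Fisher's exact test ran from 0.0370 to 0.918 over the 10 alternatives. The other tested comparisons kept their direction and their side of the threshold under each alternative run. The 1170 shared-end circRNAs became 1157 when the host gene as the table names it had to match, and 1177 with ends up to 3 bases apart. The share sharing the upstream end, 57.1%, was 55.8% with the strand of the symbol's gene and 58.1% among exon blocks. The share of shared-end circRNAs equal to an exon block, 83.5%, was 86.0% without ribosomal protein and elongation factor genes, against 72.3% of the others. At 230 reads on listed circRNAs, 45 of the 60 shared-end circRNAs with a read rest on 1 read. No paired analysis was possible because the 4 columns per library could not be tied to the labelled samples and only the authors' column over all samples was used. Leaving out each library was not run for the same reason.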
